A study of Mus musculus with 45 samples.

Results

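The genes described are 10 cytosolic aminoacyl-tRNA synthetases, Aars, Gars, Iars, Lars, Mars, Nars, Sars, Tars, Wars and Yars. They were found by symbol, allowing the newer spelling with a final 1, and all 10 were among the 35272 genes of the joined count tables. All 10 passed the low-count filter in every comparison, with 890 to 5532 reads per gene and library. Their mRNA was measured by poly-A RNA sequencing of 45 cultures of forelimb buds from CD1 mouse embryos of gestation day 13. Cultures had received the solvent DMSO as control, or bisphenol AF (BPAF, a fluorinated relative of bisphenol A) at 1 µM or 5 µM, and were kept for 3, 24 or 48 h. Each of the 9 groups of dose and time held 5 libraries. All groups shared the strain, stage, medium and an oxygen-enriched gas phase, and per the labels each bottle held pooled forelimbs of both sexes. The labels do not say on which days replicates were cultured, so the p-values measure the spread between these libraries, part of which may be technical.

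An aminoacyl-tRNA synthetase joins an amino acid to its matching tRNA, and the ribosome then uses the charged tRNA to build protein. The enzymes fall into class I, to which the isoleucine, leucine, methionine, tryptophan and tyrosine enzymes belong (Iars, Lars, Mars, Wars and Yars), and class II, to which those for alanine, glycine, asparagine, serine and threonine belong (Aars, Gars, Nars, Sars and Tars). Iars, Lars and Mars sit in a multi-synthetase complex with several other synthetases, while the other members work outside it, and the Gars gene also supplies the mitochondrial enzyme. In mammalian cells, uncharged tRNA activates the kinase GCN2, and ER stress activates the kinase PERK. Both raise translation of the transcription factor ATF4, whose known target genes include amino acid transporters, amino acid synthesis enzymes and many cytosolic synthetases.

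Each library held from 14901842 up to 25154115 counted reads (median 17820524). Levels are given as CPM, read counts relative to TMM-scaled library size, and a gene was called changed where the adjusted p of edgeR's quasi-likelihood test was below 0.05. Each library was placed by its title. A characteristic of 1 µM 3 h replicate 5 names BPA at 10 µM against its title, and the counts of calls for that group were unchanged at 0 without it. The title and library code of 1 µM 48 h replicates 1 and 2 carry crossed numbers. Limb mesenchyme markers (Prrx1, Twist1 and Tbx5) summed to between 723 and 1098 CPM over all libraries. Y-linked transcripts differed between libraries, and 3 libraries had nearly none of them, which goes against the label of mixed sexes there. These were 1 µM 3 h replicate 1, 1 µM 48 h replicate 2 and control 3 h replicate 3 (mean log2 CPM of 4 genes -2.38, -2.85 and -2.94, against group medians of 4.58, 5.28 and 4.25). Without control 3 h replicate 3, the calls in control limbs against 3 h stayed at 10 at 24 h and 9 at 48 h, and the comparisons at 3 h stayed at 0 calls without it or 1 µM 3 h replicate 1. Without 1 µM 48 h replicate 2, 5 µM against 1 µM at 48 h gave 0 calls in place of 1.

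Promoter sequence is shown because many synthetase genes are known ATF4 targets. RefSeq promoter windows, from 250 bases before to 50 bases after the start of transcription, were matched for 7 members, Aars, Gars, Iars, Mars, Sars, Tars and Yars (build GRCm38.p6, the same assembly as mm10). The letters TGATGNAA, the core of the C/EBP-ATF response element that ATF4 is known to bind, were searched on both strands. They occurred in 5 of 7 windows (71.4%), those of Aars, Gars, Iars, Tars and Yars, and in 3.97% of all 32851 windows. None of 6 windows of other cytosolic synthetases and none of 14 of mitochondrial synthetases held them, while 9 of 30 windows of the ATF4-linked list did (30%). A site of each of the 5 genes is shown with 10 bases on either side, on the strand of the gene and 5′ to 3′. Capitals mark the match, which in the sites shown reads as the reverse complement in all but Yars.
Aars, chr8:111033841-111033868, plus strand: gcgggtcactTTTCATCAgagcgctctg
Gars, chr6:55037961-55037988, plus strand: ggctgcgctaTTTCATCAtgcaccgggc
Iars, chr13:49682127-49682154, plus strand: actgtcagtaTTGCATCAcctccagacg
Tars, chr15:11399656-11399683, minus strand: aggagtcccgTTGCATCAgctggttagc
Yars, chr4:129189896-129189923, plus strand: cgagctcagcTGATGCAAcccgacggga

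Relative to the first transcribed base, the Gars match lay at -30 to -23 and the Tars match at -15 to -8. Those shown for Aars, at 10 to 17, Iars, at 8 to 15, and Yars, at 4 to 11, lay just inside the RefSeq transcript. Aars held a further match upstream, at -112 to -105. The upstream parts of the Aars, Iars, Tars and Yars windows overlap exons of the same gene in the GENCODE annotation, so these positions depend on the RefSeq start. The Gars window is shown upstream of its start at chr6:55037751-55038000, plus strand, as an example of a longer stretch around a match, and the capitals again mark the match.
Gars, upstream region: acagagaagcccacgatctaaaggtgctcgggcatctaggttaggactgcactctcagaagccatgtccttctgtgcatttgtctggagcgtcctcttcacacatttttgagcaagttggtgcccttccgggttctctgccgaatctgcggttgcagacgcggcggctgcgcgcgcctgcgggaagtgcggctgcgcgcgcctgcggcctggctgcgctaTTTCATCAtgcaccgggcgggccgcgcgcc

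A second search used CACGTG, the E-box read by MYC and related factors, which is its own reverse complement. It occurred in 3 of 7 member windows (42.9%), those of Aars, Iars and Tars, and in 7.15% of all windows. It also occurred in 1 of 6 windows of other cytosolic synthetases (16.7%), 1 of 14 of mitochondrial synthetases (7.14%) and 4 of 30 of the ATF4-linked list (13.3%). Both motifs are descriptions of letters in a window, and no binding was measured.

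Per kilobase of gene model, the 10 transcripts formed 3 tiers in control limbs at 48 h. Nars averaged 63.5 ± 2.84 CPM per kb and Gars 56.2 ± 3.37 CPM per kb (SD, n = 5 each), and their ranges overlapped. A gap separated them from Sars at 34.4 ± 3.00, Mars at 30.2 ± 1.81, Iars at 29.8 ± 2.20 and Lars at 27.3 ± 0.565 CPM per kb, in which each neighbour overlapped the next. The lowest tier held Yars at 20.3 ± 0.818, Aars at 20.3 ± 0.732, Wars at 19.45 ± 1.47 and Tars at 19.3 ± 1.30 CPM per kb, again with overlapping neighbours. The tiers rest on the deposited gene lengths, of which that of Aars is the longest at 9282 bases. Before division by length, Aars had the highest mean of the 10 in these limbs, at 188 CPM. Control limbs at 3 h gave nearly the same order, with Nars and Gars first and Wars and Tars last, and Sars below Mars and Iars.

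In the genome, the members lie apart on 9 chromosomes. Their deposited positions in mm10 are Aars on chromosome 8 (111033144 to 111057664, plus strand), Gars on 6 (55038007 to 55079500, plus), Iars on 13 (49682100 to 49734267, plus), Mars on 10 (127296221 to 127311786, minus), Sars on 3 (108424865 to 108445209, minus), Tars on 15 (11382301 to 11399665, minus), Wars on 12 (108860030 to 108894174, minus) and Yars on 4 (129189760 to 129219607, plus). Lars and Nars share chromosome 18, at 42202350 to 42262122 and 64499665 to 64516557, both on the minus strand. All 10 are annotated as protein coding.

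**Figure D1:**
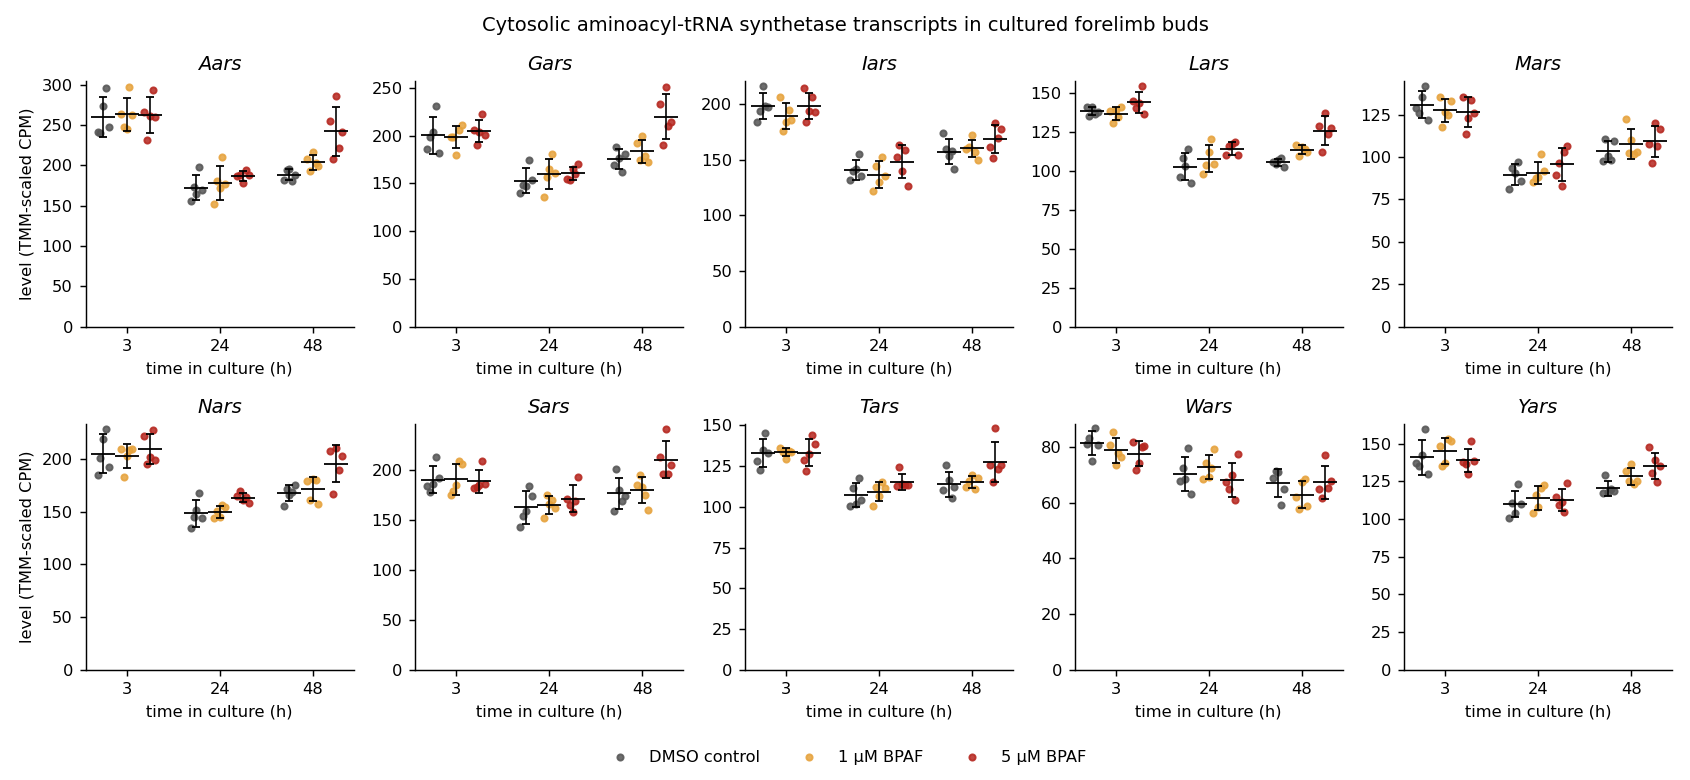
TMM-scaled CPM of the 10 synthetase transcripts (y axis, from 0) by hours in culture (x axis), with control, 1 µM and 5 µM BPAF libraries as grey, orange and red points and the group mean ± SD in black (n = 5). Levels are highest at 3 h in most panels, and the red points stand above the grey ones at 48 h for Aars, Gars and Lars, whose ranges do not overlap there.

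At 48 h, transcripts of Aars, Gars and Lars, the alanine, glycine and leucine enzymes, rose in limbs with 5 µM BPAF compared with control limbs, by log2 0.34, 0.30 and 0.23. No member fell. The 3 called of 10 stand beside a background of 2.74% of 16345 tested genes called higher in the same comparison. The median log2 fold change of the 10 members was 0.17, and that of all tested genes was -0.002. These are bulk samples, in which a change in the share of a cell type and a change in RNA per cell cannot be told apart.

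Aars had 254, 207, 286, 221 and 241 CPM in replicates 1 to 5 of the 5 µM limbs at 48 h, against 182, 194, 195, 181 and 188 CPM in control limbs. Every 5 µM library lay above every control library, with replicate 3 highest and replicate 2 lowest. The means were 242 ± 30.5 CPM in 5 µM limbs and 188 ± 6.79 CPM in control limbs (SD, n = 5 each), a log2 fold change of 0.34 ± 0.07 (SE, edgeR adjusted p = 0.00613). The 17 alternative fits gave adjusted p-values for Aars from 0.000218 to 0.0222.

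Gars had 233, 189.8, 251, 209.8 and 214 CPM in the 5 µM limbs at 48 h, against 169, 188, 176, 161 and 181 CPM in control limbs. The groups did not overlap, although replicate 2 of the 5 µM limbs was only just above replicate 2 of the controls. The log2 fold change was 0.30 ± 0.07 (SE, edgeR adjusted p = 0.0107), with a range of 0.000699 to 0.0352 over the alternatives.

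Lars, whose product is also known as a leucine sensor upstream of mTORC1, had 128, 112, 137, 123 and 127 CPM in the 5 µM limbs at 48 h, against 105.5, 104, 107, 108 and 103 CPM in control limbs. The groups did not overlap, and the control libraries lay close together. Its log2 fold change was 0.23 ± 0.06 (SE, edgeR adjusted p = 0.0194). The call was lost without control replicate 5 (adjusted p = 0.0567) and without 5 µM replicate 1 (adjusted p = 0.0502), and the alternatives spanned 0.000726 to 0.0567.

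Sars and Nars, the serine and asparagine enzymes, had log2 fold changes of about the size of Lars but did not pass the test. Sars had 213.5, 196, 241, 197 and 205.5 CPM in the 5 µM limbs at 48 h, against 159.7, 201, 180.2, 169.5 and 174 CPM in control limbs. Control replicate 2 reached into the 5 µM range. The log2 fold change was 0.23 ± 0.07 (SE, edgeR adjusted p = 0.0575). Without that control library it was 0.28 with an adjusted p of 0.0169, and the alternatives spanned 0.0169 to 0.128.

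Nars had 207.5, 167, 210.0, 189.8 and 203 CPM in the 5 µM limbs at 48 h, against 155, 171, 166, 168.5 and 175 CPM in control limbs. Replicate 2 of the 5 µM limbs lay within the control range and the other 4 lay above it. The log2 fold change was 0.20 ± 0.06 (SE, edgeR adjusted p = 0.0679). Without that library it was 0.25 with an adjusted p of 0.0101, and the alternatives spanned 0.0101 to 0.159.

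The remaining 5 members were not called at 48 h, and all 5 had overlapping ranges. Yars, the tyrosine enzyme, averaged 135 ± 8.74 CPM in 5 µM limbs and 120.5 ± 4.86 CPM in control limbs (SD, n = 5 each), with 4 of 5 treated libraries above all controls and a 95% interval of the log2 fold change of 0.02 to 0.27 (edgeR adjusted p = 0.16). Tars, the threonine enzyme, averaged 128 ± 12.4 CPM in 5 µM limbs and 114 ± 7.67 CPM in control limbs, with an interval of -0.003 to 0.28 (adjusted p = 0.274). Iars averaged 169 ± 12.3 CPM in 5 µM limbs and 157 ± 11.6 CPM in control limbs, with an interval of -0.06 to 0.22 (adjusted p = 0.601). Mars averaged 109 ± 9.19 CPM in 5 µM limbs and 103 ± 6.20 CPM in control limbs, with an interval of -0.08 to 0.19 (adjusted p = 0.695).

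Wars, the tryptophan enzyme, which interferon gamma is known to induce, averaged 67.4 ± 5.89 CPM in 5 µM limbs and 67.0 ± 5.08 CPM in control limbs at 48 h (SD, n = 5 each). Its log2 fold change was -0.02, with a 95% interval of -0.165 to 0.13 (edgeR adjusted p = 0.931). Of 16 measured interferon response genes, 0 were called in that comparison. Several of these were measured with wide error, so a change in them could be missed. For the 5 µM effect at 48 h minus that at 3 h, the SE was 0.685 for Ifit1, 0.673 for Mx1 and 0.806 for Psmb8, against 0.093 for Irf9. The 5 class II members all had log2 fold changes of at least 0.14 at 48 h, while the class I members ran from -0.02 for Wars to 0.23 for Lars. Within the multi-synthetase complex, Lars was called and Iars and Mars were not.

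Cell type markers also differed at 48 h. In 5 µM limbs compared with control limbs, 7 of 8 muscle markers were called lower, with summed levels of 1607 to 1893 CPM in 5 µM limbs against 2892 to 4565 CPM in control limbs. All 5 macrophage markers were lower, at 82.4 to 103.5 CPM against 149 to 201 CPM in control limbs, as were 2 of 4 endothelial markers, at 134 to 182.5 CPM in 5 µM limbs against 197 to 225 CPM in control limbs. Of 4 osteoblast markers, 3 were testable and 1 was called lower, with sums of 279 to 625 CPM in 5 µM limbs against 750.5 to 943 CPM in control limbs. Of 4 erythroid markers, 3 were testable and 1 was called lower, with sums of 149 to 235 CPM in 5 µM limbs against 200.3 to 313 CPM in control limbs. None of these markers was at 0 reads throughout a group, although Ckm averaged below 1 CPM in 5 µM limbs, and Bglap and Slc4a1 did so in both groups. The 5 chondrocyte markers gave 0 calls, with sums of 14980 to 18460 CPM in 5 µM limbs against 12410 to 15580 CPM in control limbs. Limb mesenchyme markers summed to 798.5 to 862 CPM in 5 µM limbs against 730 to 776.5 CPM in control limbs, without overlap. Epidermis markers summed to 160 to 434 CPM in 5 µM limbs against 212 to 411 CPM in control limbs. The part of these cell types in the higher synthetase levels was not tested.

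**Figure D2:**
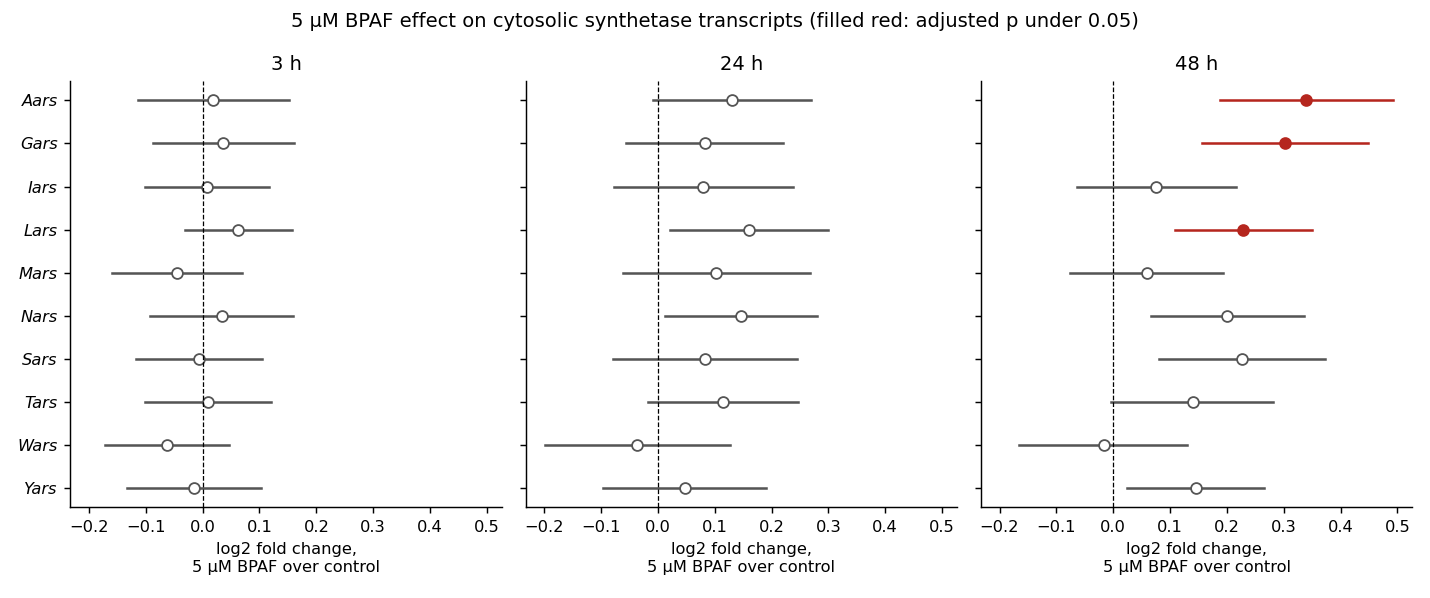
Log2 fold change of 5 µM BPAF over control (x axis) with its 95% interval for each member (y axis) at 3, 24 and 48 h, from edgeR, with called members as filled red points. At 3 h the estimates stand around 0, at 24 h 9 of 10 are above 0, and at 48 h Aars, Gars and Lars are called.

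Earlier in culture no member was called for 5 µM BPAF. At 3 h, 0 of 10 were called by edgeR, beside 0.18% of all genes called in either direction, and 0 had an unadjusted p below 0.05. No share of all genes at an unadjusted p below 0.05 is given here or below, so such counts have no background. The log2 fold changes there ran from -0.06 for Wars to 0.06 for Lars, and every 95% interval lay between -0.17 and 0.16. DESeq2 and limma-voom also called 0.

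At 24 h, 0 of 10 were called by edgeR, DESeq2 or limma-voom, beside 1.57% of all genes called in either direction, and 9 of 10 log2 fold changes were positive with a median of 0.09. Lars and Nars had unadjusted p-values below 0.05 in edgeR. Lars had 110.0, 116, 117, 118 and 109.7 CPM in 5 µM limbs at 24 h, against 96.05, 108, 103, 114 and 92.3 CPM in control limbs, an overlapping spread with a log2 fold change of 0.16 ± 0.07 (SE, edgeR adjusted p = 0.331). Nars had 164, 169, 160.5, 164 and 158 CPM in 5 µM limbs and 134, 144, 151, 168 and 144 CPM in control limbs at 24 h, a log2 fold change of 0.15 ± 0.06 (SE, edgeR adjusted p = 0.37). Control replicate 4 alone reached into the 5 µM range of Nars.

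Whether the 5 µM effect differed between times was tested as an interaction. For 48 h minus 3 h, all 10 differences of log2 fold changes were positive, from 0.06 for Wars to 0.33 for Aars, and 0 of 10 were called beside a background of 2.8% in either direction. Aars came nearest, at 0.33 ± 0.10 (SE, edgeR adjusted p = 0.0939, range over the alternatives 0.0325 to 0.194), and 5 members had an unadjusted p below 0.05. The 2.8% counts adjusted p-values, so it is no background for those 5, and the members vary together. DESeq2 called 1 member, Aars, and limma-voom 0. For 48 h minus 24 h, 0 were called (background 0.0693%) and 2 had an unadjusted p below 0.05, Gars and Aars. For 24 h minus 3 h, 0 were called (background 0.336%) and 0 had an unadjusted p below 0.05. DESeq2 and limma-voom called 0 in both of these. Without 5 µM 48 h replicate 2, Aars was called for 48 h minus 3 h (adjusted p = 0.0325).

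The dose of 1 µM gave no call among the members at any time. Against the same control libraries used for 5 µM, edgeR, DESeq2 and limma-voom each called 0 of 10 at 3, 24 and 48 h, where edgeR's background over all genes was 0, 0.00608 and 0% in either direction. Unadjusted p-values below 0.05 numbered 0, 0 and 2 at 3, 24 and 48 h. At 48 h Aars averaged 204 ± 9.01 CPM in 1 µM limbs and 188 ± 6.79 CPM in control limbs (SD, n = 5 each), with a 95% interval of the log2 fold change of 0.01 to 0.22. Lars had 116, 109, 115, 114 and 112 CPM in 1 µM limbs, and each of these was above the highest control at 108 CPM, with an interval of 0.00 to 0.21 (edgeR adjusted p = 0.998). Over all members and times, the intervals for 1 µM lay between -0.24 and 0.22.

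Between the doses, 5 µM against 1 µM at 48 h gave 1 called member, Gars, beside 2.19% of all genes called higher. Its 5 µM libraries are listed above, and its 1 µM libraries had 192.5, 174, 179 and 173 CPM in replicates 1, 2, 4 and 5, with replicate 3 highest. Of the 5 µM libraries, 4 lay above every 1 µM library, and the log2 fold change was 0.24 ± 0.07 (SE, edgeR adjusted p = 0.0491). That call was lost with limma-voom, with the mean of the Y-linked genes as a covariate, without 1 µM replicate 1, 2, 4 or 5, and without 5 µM replicate 1, 3, 4 or 5, with adjusted p-values from 0.00297 to 0.139 over the alternatives. Without 5 µM replicate 2, 3 members were called. Aars at 0.23 ± 0.07 (adjusted p = 0.0721) and Sars at 0.21 ± 0.07 (adjusted p = 0.077) were near the threshold, and the Sars ranges did not overlap. All 10 differences were positive. At 3 h and 24 h, 0 members were called by edgeR, DESeq2 or limma-voom (backgrounds 0.036 and 1.19% in either direction), with 0 and 1 (Nars) at an unadjusted p below 0.05.

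**Figure D3:**
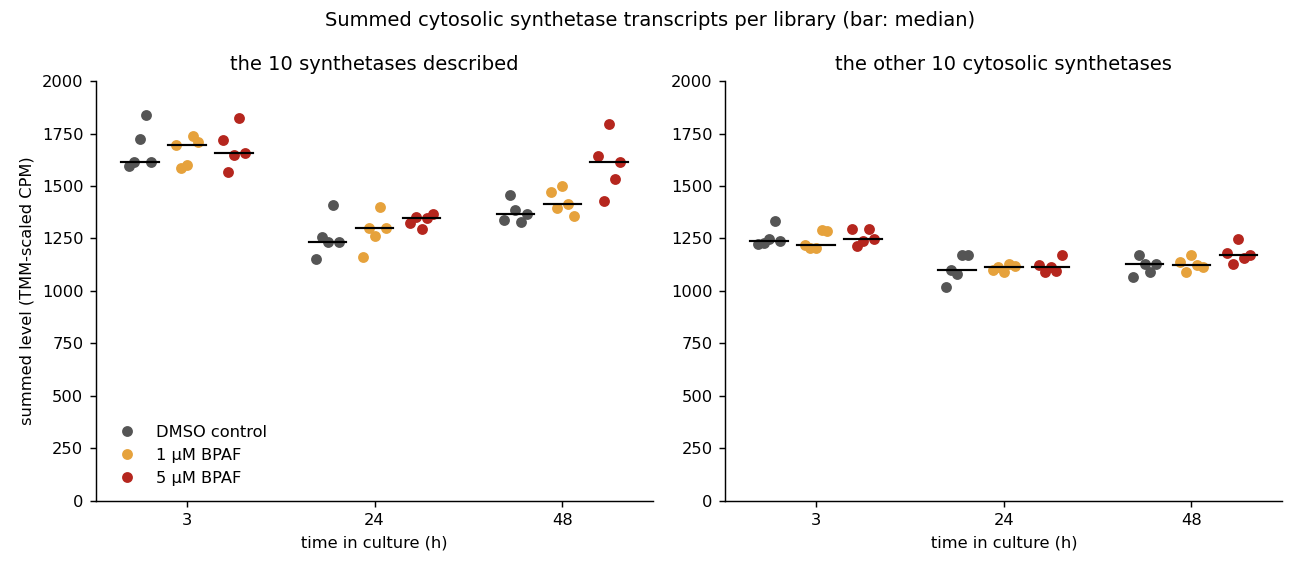
Summed TMM-scaled CPM per library (y axis, from 0) by hours in culture (x axis) for the 10 synthetases described (left) and the other 10 cytosolic synthetases (right), with control, 1 µM and 5 µM BPAF in grey, orange and red and a bar at the median of 5 libraries. At 48 h the left panel spans 1427 to 1793 CPM in 5 µM libraries and 1328 to 1455 CPM in control libraries, and 5 µM replicate 2 is the only 5 µM library within that control range.

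In control limbs, all 10 fell at 24 h compared with 3 h, by log2 0.22 for Wars to 0.60 for Aars, with a median log2 fold change of -0.42 beside -0.009 for all genes. A background of 18.7% of 16481 genes was called lower in the same comparison. The ranges did not overlap for 8 members, the exceptions being Sars and Wars, and all 10 were called lower in each of 17 alternative fits. The share of all genes with ranges apart was not counted. The summed level of the 10 ran from 1151 to 1410 CPM in control limbs at 24 h and from 1596 to 1837 CPM at 3 h.

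Aars had 156, 173, 164, 197 and 169.5 CPM in control limbs at 24 h, against 241.5, 239.9, 273, 296 and 248 CPM at 3 h. All 24 h libraries were below all 3 h libraries, and the log2 fold change was -0.60 ± 0.07 (SE, edgeR adjusted p = 3.14e-06). Mars, the methionine enzyme, which charges the initiator tRNA as well, had 81.3, 93.5, 90.4, 96.9 and 85.9 CPM at 24 h, against 129, 126, 135, 142 and 122 CPM at 3 h. Its log2 fold change was -0.55 ± 0.06 (SE, edgeR adjusted p = 1.22e-06), again without overlap. Iars followed at -0.50 ± 0.06, Nars at -0.47 ± 0.07 and Lars at -0.435 ± 0.06 (SE, edgeR adjusted p of 2.25e-06, 3.44e-05 and 1.26e-05).

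Wars and Sars changed least on the first day. Wars had 67.8, 72.3, 68.6, 79.5 and 63.05 CPM in control limbs at 24 h, against 81.2, 83.1, 75.1, 86.7 and 80.6 CPM at 3 h, and 24 h replicate 4 lay inside the 3 h range. Its log2 fold change was -0.22 ± 0.06 (SE, edgeR adjusted p = 0.00948), and that of Sars was -0.23 ± 0.07 (SE, edgeR adjusted p = 0.0124). Other measures moved along with the members here. All 4 Y-linked genes were called higher at 24 h, and with their mean as a covariate all 10 members were still called lower. Muscle markers (7 of 8 called) and chondrocyte markers (4 of 5) were higher at 24 h, with summed levels of 2222 to 2698 CPM at 24 h against 806 to 1044 CPM at 3 h for muscle, and 7987 to 9592 CPM at 24 h against 3608 to 4013 CPM at 3 h for chondrocytes. All 4 erythroid and all 4 endothelial markers were lower, erythroid at 456 to 966 CPM at 24 h against 711 to 1057 CPM at 3 h, and endothelial at 167 to 206 CPM at 24 h against 266 to 304 CPM at 3 h. Of the other lists, 3 of 3 testable osteoblast markers and 4 of 5 macrophage markers were higher at 24 h. Osteoblast sums were 173.5 to 239 CPM at 24 h against 40.4 to 52.9 CPM at 3 h, and macrophage sums 95.1 to 119.9 CPM at 24 h against 41.7 to 52.2 CPM at 3 h. Limb mesenchyme sums were 858 to 935.5 CPM at 24 h against 1011 to 1098 CPM at 3 h, without overlap. Epidermis sums were 65.9 to 342 CPM at 24 h against 283 to 426 CPM at 3 h. The part of these cell types and of the sex of the limbs in the fall was otherwise not tested.

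On the second day in culture, control limbs gave 1 call of 10, Mars, which was higher at 48 h than at 24 h beside 9.71% of all genes called higher. The count is near that share, so it does not set the members apart from other genes. Mars was called in 9 of 17 alternative fits. Mars had 97.8, 110.5, 100.4, 98.3 and 109 CPM at 48 h, and its 24 h libraries listed above all lay lower, with a log2 fold change of 0.20 ± 0.06 (SE, edgeR adjusted p = 0.0351, range over the alternatives 0.0126 to 0.135). Gars had a log2 fold change of 0.19 ± 0.06 (SE, edgeR adjusted p = 0.0501). Without control 24 h replicate 4, which held the highest 24 h level of all 10 members, 5 of them were called higher at 48 h. Without 24 h replicate 1, 2, 3 or 5, or without 48 h replicate 2 or 5, 0 were called, and without 48 h replicate 4, 2 were. With the Y-linked covariate 0 were called. Control 48 h against 3 h gave 9 members lower, beside 25.4% of all genes, with Sars not called (log2 fold change -0.10, edgeR adjusted p = 0.209) and Aars the furthest at -0.46 ± 0.06 (SE, edgeR adjusted p = 6.93e-06). There the Gars call was lost without control 3 h replicate 4 or 48 h replicate 1 or 4 and with the Y-linked covariate (adjusted p = 0.0727, range over the alternatives 0.00942 to 0.0727), and Sars was called without 48 h replicate 2.

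Set side by side over the 3 times, Aars averaged 260 ± 24.3, 172 ± 15.6 and 188 ± 6.79 CPM in control limbs at 3, 24 and 48 h, 263 ± 20.8, 178 ± 21.0 and 204 ± 9.01 CPM in 1 µM limbs, and 262 ± 22.3, 187 ± 6.21 and 242 ± 30.5 CPM in 5 µM limbs (SD, n = 5 each). Lars averaged 144 ± 6.71, 114 ± 3.93 and 126 ± 9.07 CPM in 5 µM limbs and 138 ± 2.51, 103 ± 8.74 and 105 ± 2.18 CPM in control limbs at the same times. Wars averaged 77.65 ± 4.38, 68.1 ± 6.17 and 67.4 ± 5.89 CPM in 5 µM limbs and 81.3 ± 4.25, 70.2 ± 6.12 and 67.0 ± 5.08 CPM in control limbs. As a share of all reads, the 10 members took 0.172, 0.126 and 0.133% in control limbs at 3, 24 and 48 h, 0.172, 0.129 and 0.139% in 1 µM limbs, and 0.175, 0.134 and 0.153% in 5 µM limbs. In the authors' deposited tables, 5 members were higher for 5 µM at 48 h, among 1521 genes called in either direction. There, 10 were lower in control limbs at 24 h against 3 h (6361 genes), 2 higher at 48 h against 24 h (3011 genes) and 9 lower at 48 h against 3 h (8695 genes), while 0 were called for 1 µM at any time or for 5 µM at 3 h or 24 h in the authors' deposited tables. All of these gene numbers count both directions. The number of genes the authors tested was not taken, so no share of all genes is given for their calls.

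The other 10 cytosolic synthetases gave 1 call at 48 h for 5 µM BPAF, and their median log2 fold change was 0.01 beside 0.17 for the 10 described. The call was Cars, the cysteine enzyme, at 108 ± 5.96 CPM in 5 µM limbs and 90.05 ± 5.91 CPM in control limbs (SD, n = 5 each), with a log2 fold change of 0.24 ± 0.06 (SE, edgeR adjusted p = 0.0199) and no overlap. The 9 not called ran from -0.07 for Hars to 0.11 for Kars. In control limbs at 24 h against 3 h, 5 of these 10 were called lower, namely Cars at -0.57 ± 0.07, Hars at -0.30 ± 0.05, Qars at -0.26 ± 0.06, Kars at -0.23 ± 0.05 and Eprs at -0.18 ± 0.06 (log2 fold change with SE). Farsa, Farsb, Dars, Rars and Vars were not called. Of 17 mitochondrial synthetases, 0 were called at 48 h for 5 µM, and 7 were lower and 1 higher in control limbs at 24 h against 3 h. The 3 scaffold proteins of the multi-synthetase complex, Aimp1, Aimp2 and Eef1e1, had log2 fold changes of -0.04, -0.115 and 0.05 at 48 h for 5 µM, and none was called.

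The culture effect and the BPAF effect can be compared gene by gene, since control limbs at 24 h and 3 h share no library with either group at 48 h. Across the 20 cytosolic synthetases, the log2 fold change on the first day of culture and that of 5 µM BPAF at 48 h had a Pearson r of -0.65 and a Spearman rho of -0.65. Within the 10 members the Pearson r was -0.31 and the Spearman rho -0.26. These are descriptions over genes, which are not independent replicates. Aars was furthest in both directions, whereas Mars and Iars fell strongly in culture and were not called for BPAF.

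**Figure D4:**
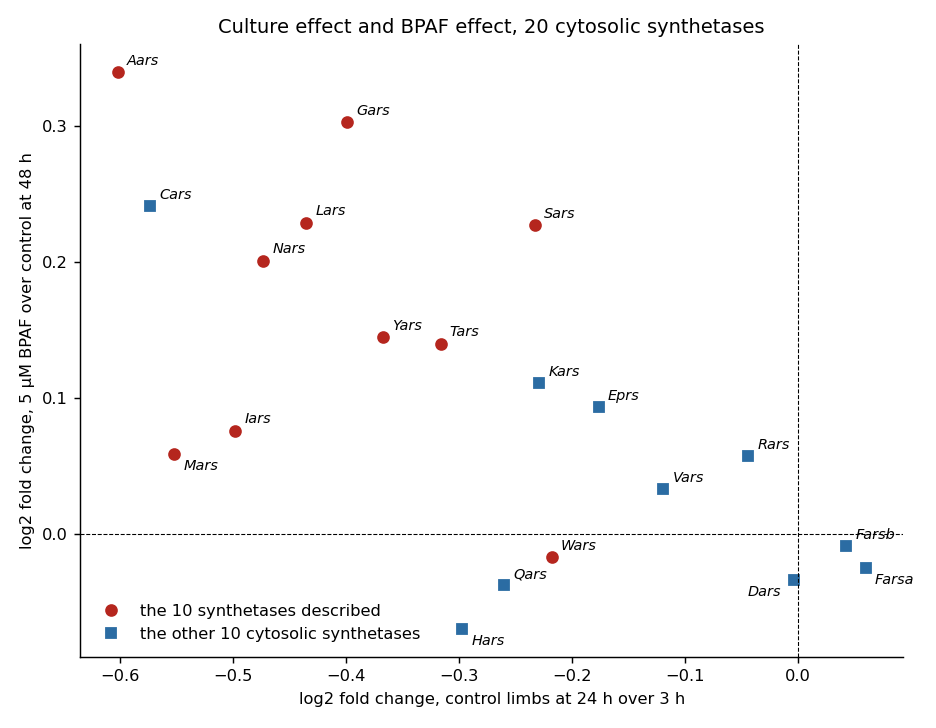
Log2 fold change of 5 µM BPAF over control at 48 h (y axis) against that of control limbs at 24 h over 3 h (x axis) for the 10 synthetases described (red circles) and the other 10 cytosolic synthetases (blue squares). Aars stands at -0.60 and 0.34, Cars is the blue square among the red circles, and Mars and Iars lie far left with small values on the y axis.

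Of the 8 transcripts whose pattern was most like the members' mean over all 45 libraries, 5 were on the list of ATF4-linked genes described next. A mean of at least 2 CPM was reached by 13756 genes. From these the members, pseudogenes and genes with predicted or clone-type names were left out of the ranking. Asns, which makes asparagine, came first with a Pearson r of 0.96, and 0.82 once group means were removed. Slc7a5, a large neutral amino acid transporter, had 0.96 and 0.73, Aldh18a1, an enzyme of proline synthesis, 0.95 and 0.77, and Slc1a4, a neutral amino acid transporter, 0.93 and 0.73. Cars, Clic4, Pabpc1 and Atf3 followed at 0.91, 0.91, 0.90 and 0.89, and at 0.495, 0.61, 0.47 and 0.14 without group means. The libraries share culture time and dose, so these values describe joint variation over the design. Among the members, Aars had the highest correlation with the mean of the other 9 (0.98), and Sars (0.735) and Wars (0.53) had the lowest.

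Among 36 ATF4-linked genes other than synthetases, 23 were called higher and 0 lower for 5 µM BPAF at 48 h, with a median log2 fold change of 0.38, beside the 2.74% of all genes called higher. At 24 h 6 were higher, and at 3 h 0 were called. The 4 with the smallest p at 48 h were Trib3, a pseudokinase that restrains ATF4, at 1.43 ± 0.16, Atf5, a transcription factor, at 0.66 ± 0.08, Sesn2, an mTORC1 inhibitor, at 0.67 ± 0.10, and Slc7a5 at 0.53 ± 0.08 (log2 fold change with SE, edgeR adjusted p between 1.33e-05 and 0.000547). Ddit3, which encodes CHOP, was at 0.70 ± 0.14 (edgeR adjusted p = 0.00368) and Asns at 0.36 ± 0.07 (adjusted p = 0.00399). In control limbs at 24 h against 3 h, 23 of the 36 were lower and 2 higher, and at 48 h against 24 h 17 were higher and 0 lower. Each comparison uses the same libraries as the members' own values do. Of the members with the TGATGNAA letters shown above, Aars and Gars were called at 48 h and Iars, Tars and Yars were not.

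Among 8 measured genes of the integrated stress response, 3 were called higher for 5 µM at 48 h. Atf4 itself averaged 351 ± 30.9 CPM in 5 µM limbs and 280 ± 23.5 CPM in control limbs (SD, n = 5 each), a log2 fold change of 0.30 ± 0.07 (SE, edgeR adjusted p = 0.012). Impact, an inhibitor of GCN2, was at 0.30 ± 0.055 (adjusted p = 0.00167), and Eif2ak3, which encodes PERK, at 0.29 ± 0.08 (adjusted p = 0.0409). Eif2ak4, which encodes GCN2 and was singled out after its values were seen, was at -0.01 ± 0.075 (adjusted p = 0.955). Of 18 ER chaperone and ER stress genes, 8, 6 and 14 were called higher at 3, 24 and 48 h for 5 µM, while the synthetases and the ATF4-linked list had 0 calls at 3 h. Of 8 elongation and termination factors, 0 were called at 3, 24 or 48 h, and the same held for 5 tRNA editing factors.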

How the data were processed

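Per the file headers, the authors deposited 9 tables, each holding raw read counts per gene for the libraries of a pair of groups, gene lengths, the authors' log2 fold changes and the authors' p-values. CASAVA 1.8, STAR 2.5 and HTSeq 0.6.1 are named alongside DESeq2 and build mm10 by the submitters' processing notes. Strand setting and aligner options are not given in the sources used here, so reads of overlapping or antisense genes cannot be told apart. Counts were joined by gene identifier, 0 values differed between tables, and a gene absent from a table (11.7% of gene and library pairs) was read as 0. From the authors' fold changes and p-values, only the numbers of members and of all genes they call were taken.

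Each comparison was fitted on its own libraries over all genes with edgeR 4.0.16 (R 4.3.3): TMM, filterByExpr (counts of at least 10, totals of at least 15), the quasi-likelihood test and Benjamini-Hochberg adjustment over all genes tested. Effects at different times were compared as interaction contrasts. Levels are TMM-scaled CPM, and correlations used log2 CPM with a prior count of 2. The alternatives were RLE scaling, DESeq2 1.42.0, limma-voom (limma 3.58.1), no filter, a replicate block, 1 fit over all groups, a Y-linked covariate, leaving out each library, and, at 24 h, leaving out the pair of libraries highest in haemoglobin reads (0 calls). The script was tested on simulated data.

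The members and the gene lists were chosen with earlier results of these data known. The genes named were all members, the other cytosolic synthetases, the complex scaffolds, Atf4, Ddit3, Trib3 and Asns, up to 4 called genes of smallest p per further list, and the 8 genes most like the members' mean. The markers and the promoter windows were examined as given in the text. 1 promoter sequence is not reported here.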

Additional observations from a re-analysis of the deposited data

Results flagged for a closer look

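Within the 90 groups formed by 10 members and 9 conditions, 4 held a library far from its 4 companions by Dixon's criterion for 5 values, which chance alone meets in about 1 in 20 groups. Nars was at 182.5 CPM in 1 µM 3 h replicate 2, below the 202 to 209.7 CPM of the other libraries. Sars was at 209.5 CPM in 5 µM 3 h replicate 4, above the 182 to 186 CPM of the others. Tars was at 124 CPM in 5 µM 24 h replicate 2, above the 113 to 114 CPM of the others. Yars was at 129.0 CPM in control 48 h replicate 2, above the 117 to 119.8 CPM of the others.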

How the results depend on the processing

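Each of the 10 members' log2 fold changes in the 15 comparisons was recomputed under the alternatives, 2860 values in all. None changed direction after a call, 24 lost a call and 36 gained one. For 5 µM against control at 48 h, the 3 calls became 5 with DESeq2, with 1 fit over all 9 groups and with the Y-linked covariate (Nars and Sars added), and ran from 2 to 4 when a library was left out. All genes called there in either direction numbered 1171 in the main fit. They numbered 1580 with DESeq2, 1680 with 1 fit over all 9 groups and 1497 with the Y-linked covariate. For 5 µM against 1 µM at 48 h, the 1 call became 3 with DESeq2, with no low-count filter, with the replicate block and with 1 fit over all groups (Aars and Sars added), and 0 with limma-voom and the Y-linked covariate. Leaving out a library gave 0 to 3, with 3 without 5 µM replicate 2. All genes called there numbered 974 in the main fit, 1288 with DESeq2, 1007 with no filter and 1447 with the replicate block. They numbered 1250 with 1 fit over all groups, 968 with limma-voom and 759 with the Y-linked covariate. For control limbs at 48 h against 24 h, the 1 call became 2 with RLE scaling, limma-voom and the replicate block, 3 with DESeq2 and 1 fit over all groups, and 0 with no filter and with the Y-linked covariate, and 0 to 5 when a library was left out. All genes called there numbered 2677 in the main fit, 2659 with RLE scaling, 2680 with limma-voom and 2775 with the replicate block. They numbered 3119 with DESeq2, 3223 with 1 fit over all groups, 2498 with no filter and 2188 with the Y-linked covariate. For 48 h minus 3 h, 0 became 1 with DESeq2 and 0 to 1 when a library was left out, the 1 without 5 µM 48 h replicate 2. All genes called there numbered 491 in the main fit and 672 with DESeq2. With the replicate block, 5 µM against control at 48 h gave 4 calls (Sars added, edgeR adjusted p = 0.0292), with 1672 of all genes called. The 3 h and 24 h comparisons with 5 µM gave 0 and control limbs at 24 h against 3 h gave 10, as without the block. For 5 µM and control, 4 of 5 same-numbered pairs had deviations correlated above 0.1 at 48 h (0.124 to 0.203, replicate 1 at 0.00212) and 4 of 5 at 24 h (0.112 to 0.37, replicate 1 at 0.095). In the pairs above 0.1, the 5 µM library's highest correlation with a control of another number was -0.000537 to 0.0717 at 48 h (replicate 1 at 0.0436). At 24 h it was -0.0988 to 0.062 (replicate 1 at 0.101). Since not every pair passed 0.1 and the labels give no shared batch, the numbers were not taken as a pairing in the main fits. Whether libraries of the same number shared a batch was not tested, and the block used the numbers of the titles. Control limbs at 48 h against 3 h gave 8 with the Y-linked covariate and 8 to 10 when a library was left out. All genes called there numbered 8424 in the main fit and 7513 with the covariate. The cause of these shifts was not tested. At 890 to 5532 reads per member and library, every member could be tested at every time.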
